A study of Rattus norvegicus with 6 samples.

Results

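The 10 genes described here are known from acid secretion and ammonia transport in the intercalated cells of the kidney collecting duct. Some, such as Car2, are also made by other cells, and the cells behind the reads were not identified. These 10 genes were taken by exact name from the table of normalized counts, and all 10 were found among its 27321 features. They are the transcription factor Foxi1, the carbonic anhydrases Car2, Car4, Car12 and Car15, the ammonia channels Rhbg and Rhcg, and the proton pump subunits Atp6v1b1, Atp6v0a4 and Atp6v1g3. RNA was sequenced from the IM tip, the terminal part of the kidney inner medulla (IM), of male Sprague-Dawley rats, 3 months old. In 3 rats diabetes was induced with streptozotocin (STZ), which kills the insulin-producing beta cells, at 62.5 mg/kg into the tail vein, and 3 control rats were given vehicle. Tissue was taken from both groups 15 days after the injection. The IM tip is a whole tissue piece that holds collecting duct, thin limb, vascular and interstitial cells. Markers of thick ascending limb cells were also counted and differed between the groups, as given below. The values are averages over all cells in the piece taken.

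Type A intercalated cells secrete acid into the urine. Cytosolic carbonic anhydrase supplies protons and bicarbonate, the vacuolar-type proton pump (V-ATPase) at the apical membrane moves the protons into the lumen, and the anion exchanger Slc4a1 returns bicarbonate to the blood side. The Rh glycoproteins let ammonia pass, and the trapped ammonium carries much of the acid that the kidney excretes. Foxi1 is the forkhead factor without which intercalated cells do not form, and it is known to activate V-ATPase and anion exchanger genes. In the inner medulla these cells lie mainly in the initial part of the collecting duct and become scarce toward the tip.

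The deposited values are reads per gene divided by a size factor for each library, called normalized counts below. The libraries held between 3412311 and 5575171 reads on annotated features, and 1 read equalled 0.763 to 1.11 normalized counts. Where values are listed by group, they stand in the order of replicates 1, 2 and 3. Groups were compared with limma on log2(normalized count + 1), with Benjamini-Hochberg adjustment over the 13486 features whose mean reached 5. A log2 fold change is STZ minus control on that scale, on which the added 1 shrinks changes of low genes. At an adjusted p of 0.05 limma called 2.10% of these features, 0.927% lower and 1.17% higher in STZ rats. The median log2 fold change over all features tested was 0.01. All 3 control libraries were sequenced in the same lane and the STZ libraries in other lanes, so lane and treatment cannot be told apart. The collecting duct was well represented, with Aqp2, the vasopressin-regulated water channel, at 2137 to 7413 normalized counts and Aqp3, the basolateral water channel, at 4728 to 22114.

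Of the 9 genes that reached the minimum mean, 4 fell in STZ rats, namely Atp6v1b1, Atp6v0a4, Atp6v1g3 and Rhcg, against 0.927% of all features tested. These falls were between 2.26-fold and 3.70-fold. None of the 9 rose by limma, against 1.17%, and 7 had an unadjusted p under 0.05 in either direction, against 14.7% of all features tested. Rhbg and Car2 were higher in all 3 STZ libraries than in any control library, by 1.67-fold each, without passing the threshold. Foxi1 was lower in every STZ library and did not pass. Car4 and Car12 overlapped between the groups, and Car15 was too low to be tested. In all, 5 of the 9 genes had STZ values that all lay below the control values, against 10.3% of the features tested, and 2 had STZ values that all lay above, against 10.1%, which together makes a background of 20.3%. In these whole-tissue samples, fewer intercalated cells, less RNA per cell, a difference in lane and a difference in the piece dissected cannot be told apart.

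**Figure D1:**
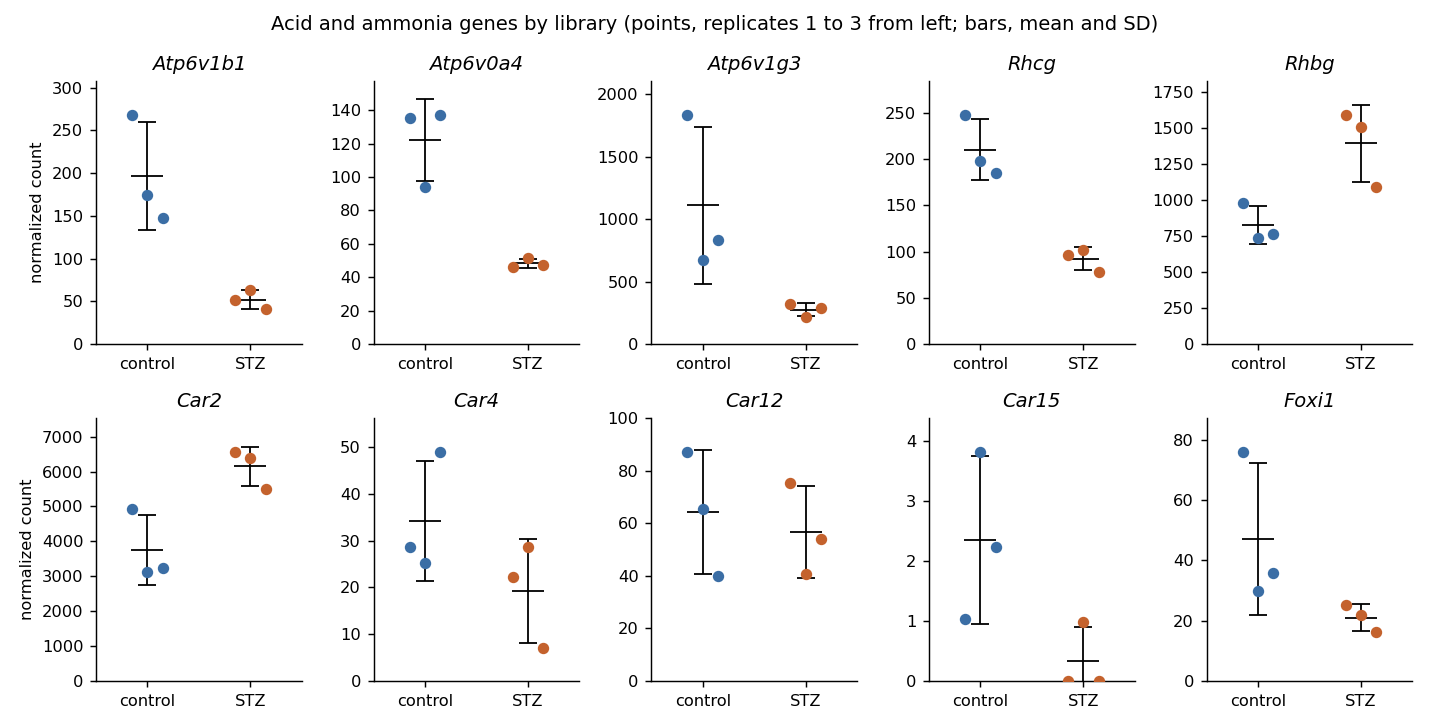
Normalized counts of the 10 genes in each library, with control libraries in blue, STZ libraries in orange, points from left to right for replicates 1 to 3, and black bars for the mean and SD of 3 libraries. Each panel has its own linear axis from 0. The STZ points of Atp6v1b1, between 41.2 and 63.3, lie below the lowest control point of 148, while those of Rhbg, from 1088 to 1585, lie above the highest control point of 980.1.

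Atp6v1b1 encodes the B1 subunit of the catalytic V1 sector, the form of the B subunit typical of intercalated cells and of the inner ear. The control libraries had 268, 174 and 148 normalized counts of it, and the STZ libraries 52.0, 63.3 and 41.2. The groups lay far apart, with the highest STZ value under the lowest control value. The control mean was 197 ± 62.9 and the STZ mean 52.2 ± 11.1 (SD, n = 3 each). The log2 fold change was −1.87 (SE 0.26, 95% interval −2.45 to −1.29, adjusted p = 0.00609 by limma), a 3.65-fold lower level. The gene lies on chromosome 4 of rn4 from 117931971 to 117950626. With any library left out, Atp6v1b1 had an adjusted p between 0.00461 and 0.0281.

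Atp6v0a4 encodes the a4 subunit of the membrane V0 sector, a form with which the pump reaches the apical membrane and whose loss in people causes distal renal tubular acidosis. Its normalized counts were 135, 93.8 and 137 in the control libraries. The STZ libraries had 46.4, 51.4 and 47.2, a narrow range that lay below every control value. The means were 122 ± 24.4 and 48.3 ± 2.70 (SD, n = 3 each), and the log2 fold change was −1.30 (SE 0.22, 95% interval −1.79 to −0.80, adjusted p = 0.016 by limma), or 2.46-fold lower. It lies on chromosome 4 of rn4 from 65588969 to 65633108. The adjusted p of Atp6v0a4 was 0.0557 without control replicate 1, 0.0585 without STZ replicate 2 and 0.0522 without STZ replicate 3.

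Atp6v1g3 encodes the G3 subunit of the V1 sector, a stalk protein found chiefly in the kidney. It drew the most reads of the 3 pump subunits, with 1832, 675 and 833 normalized counts in the control libraries and 322, 218 and 287 in the STZ libraries. Control replicate 1 stood well above the other controls, and the lowest control was still above every STZ library. The means were 1113 ± 627 and 276 ± 53.2 (SD, n = 3 each). STZ rats were 3.70-fold lower, at −1.89 on the log2 scale (SE 0.33, 95% interval −2.61 to −1.17, adjusted p = 0.016 by limma). The log2 fold change was −1.46 without control replicate 1, with an adjusted p of 0.0157. Without STZ replicate 2 the adjusted p of Atp6v1g3 was 0.0737. The gene lies on chromosome 13 of rn4 from 51462069 to 51476522.

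Rhcg is the ammonia channel of the apical, and in part the basolateral, membrane of collecting duct cells. Control libraries held 247, 198 and 185 normalized counts of Rhcg. STZ libraries held 96.6, 102 and 78.3, all below the controls. The means were 209.8 ± 32.9 and 92.2 ± 12.4 (SD, n = 3 each). The log2 fold change was −1.17 (SE 0.21, 95% interval −1.63 to −0.72, adjusted p = 0.0171 by limma), or 2.26-fold lower. Rhcg lies on chromosome 1 of rn4 from 135361419 to 135386461. Leaving out control replicate 1 or 2 gave an adjusted p of 0.0557 or 0.0654, and leaving out STZ replicate 2 or 3 gave 0.0568 or 0.0643.

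On the recovered whole reads, edgeR's quasi-likelihood test also called these 4 genes, with adjusted p-values between 0.00657 and 0.0168 and a background of 0.994% of features called lower. All 4 calls were lost when limma was run without its intensity trend, at adjusted p-values from 0.086 to 0.163, and when no filter on low values was used, at 0.103 to 0.244.

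Since these 4 genes fell together, their promoters are shown, as the 250 bases before the RefSeq transcription start on the assembly GRCr8, which is not the build of the counts. Capitals mark a forkhead motif, searched as GTAAACA or ATAAACA on either strand. No matches overlap in the windows shown.
Atp6v1b1, chr4:117781194-117781443, plus strand: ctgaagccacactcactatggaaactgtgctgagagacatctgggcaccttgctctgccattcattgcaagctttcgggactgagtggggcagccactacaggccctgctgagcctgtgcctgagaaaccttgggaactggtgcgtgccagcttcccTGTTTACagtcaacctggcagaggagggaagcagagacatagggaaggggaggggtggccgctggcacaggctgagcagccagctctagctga
Atp6v1g3, chr13:52362082-52362331, plus strand: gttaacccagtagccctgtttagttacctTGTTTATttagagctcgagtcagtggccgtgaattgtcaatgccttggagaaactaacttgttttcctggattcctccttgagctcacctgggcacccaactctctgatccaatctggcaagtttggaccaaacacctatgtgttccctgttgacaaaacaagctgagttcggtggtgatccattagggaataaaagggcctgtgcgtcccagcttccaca
Atp6v0a4, chr4:67809093-67809342, minus strand: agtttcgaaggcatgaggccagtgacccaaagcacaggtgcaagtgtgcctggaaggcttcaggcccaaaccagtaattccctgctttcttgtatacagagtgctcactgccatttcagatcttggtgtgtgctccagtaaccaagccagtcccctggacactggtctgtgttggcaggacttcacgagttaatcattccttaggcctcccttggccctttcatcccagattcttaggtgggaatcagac
Rhcg, chr1:142965163-142965412, minus strand: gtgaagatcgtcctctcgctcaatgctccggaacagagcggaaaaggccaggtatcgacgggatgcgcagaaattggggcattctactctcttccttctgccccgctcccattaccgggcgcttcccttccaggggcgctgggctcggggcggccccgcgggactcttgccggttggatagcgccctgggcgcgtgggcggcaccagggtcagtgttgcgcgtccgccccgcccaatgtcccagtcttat
Atp6v1b1 holds the first motif on the opposite strand, beginning 93 bases before the start. Atp6v1g3 holds the second motif on the opposite strand, beginning 221 bases before the start. The windows of Atp6v0a4, Rhcg, Foxi1, Rhbg, Car4, Car12 and Car15 held neither, and Car2 had no match by symbol. One or both motifs were thus found in 2 of the 9 windows matched, against 7.08% of all 33469 promoters of the same length (3.21% for GTAAACA and 4.04% for ATAAACA). For each of the 9 genes only the first listed start was used, while the share over all promoters counts every listed start. A match shows only that these letters occur there.

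Rhbg, a relative of Rhcg, is the ammonia channel of the basolateral membrane. The counts were 980.1, 738 and 764 in the control libraries and 1585, 1505 and 1088 in the STZ libraries, both normalized. Every STZ library lay above every control library. The means were 827 ± 133 and 1393 ± 267 (SD, n = 3 each), and the log2 fold change was 0.74 (SE 0.21, 95% interval 0.28 to 1.20, adjusted p = 0.107 by limma). Rhbg lies on chromosome 2 of rn4 from 180320787 to 180333050. The call depended on the scaling and the model, since the adjusted p of Rhbg was 0.0124 with DESeq2, 0.033 with equal library totals and 0.0232 with quantile normalization, settings that called 2.45%, 1.38% and 1.98% of features higher.

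The ratio of Rhcg to Rhbg within a library hardly depends on the size factor. On a log2 scale, with 1 added to each normalized count, it was −1.98, −1.90 and −2.04 in the control libraries and −4.02, −3.87 and −3.78 in the STZ libraries. The replicates of a group thus lay close together and the groups far apart. The mean was −1.97 ± 0.07 in control and −3.89 ± 0.12 in STZ libraries (SD, n = 3 each), a difference of −1.92 or a 3.78-fold lower ratio. An exact two-sided permutation test gave p = 0.1, the smallest that 3 libraries against 3 allow, and it stayed 0.1 when adjusted over the 3 planned ratios that could be computed.

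The carbonic anhydrases interconvert CO2 and bicarbonate. Car2, the cytosolic enzyme of intercalated cells that other collecting duct and thin limb cells also make, drew the most reads of all 10 genes. Its control libraries had 4921, 3126 and 3235 normalized counts. The STZ libraries had 6558, 6379.6 and 5511. All STZ values were above all control values, with means of 3760.4 ± 1006 and 6149.7 ± 560.1 (SD, n = 3 each). The log2 fold change was 0.74 (SE 0.23, 95% interval 0.23 to 1.25, adjusted p = 0.147 by limma). As with Rhbg, the adjusted p of Car2 was under the threshold in other settings, at 0.0215 with DESeq2, 0.039 with equal library totals and 0.0186 with quantile normalization. Car2 lies on chromosome 2 of rn4 from 88077083 to 88092256.

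Car4 and Car12 act outside the cell, Car4 through a lipid anchor in the membrane and Car12 through a membrane-spanning segment. For Car4 the normalized counts were 28.7, 25.2 and 49.0 in control libraries and 22.3, 28.7 and 7.03 in STZ libraries. Its groups overlapped, and STZ replicate 3, with 7 reads, was the lowest library (log2 fold change −0.94, SE 0.48, 95% interval −1.98 to 0.11, adjusted p = 0.407 by limma). Without that library the log2 fold change of Car4 was −0.37. For Car12 they were 87.1, 65.6 and 40.1 against 75.2, 40.6 and 54.2, with overlap. Its log2 fold change of −0.15 had a 95% interval from −0.86 to 0.55 (SE 0.32, adjusted p = 0.911 by limma), which holds changes of either direction. The sign for Car12 turned when control replicate 1 (0.10) or STZ replicate 2 (0.06) was left out. They lie on rn4 at chromosome 10 from 73229210 to 73237707 and at chromosome 8 from 71017731 to 71070729.

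Car15, another lipid-anchored enzyme of rodents, had 1, 5 and 2 reads in the control libraries and 0, 1 and 0 in the STZ libraries. It was above the floor of 3 reads in 1 library only, and in no library did it exceed the 95th percentile of 835 olfactory receptor genes, a measure of background not adjusted for gene length. Its transcript was not detectable above background at this depth. Car15 lies on chromosome 11 of rn4 from 85135230 to 85138426.

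Foxi1 had 75.9, 29.7 and 35.6 normalized counts in the control libraries. The STZ libraries had 25.1, 21.8 and 16.1 normalized counts of Foxi1. The STZ values were all below the controls, but control replicate 1 was far above the other controls, which lay close to STZ replicate 1. The means were 47.1 ± 25.1 and 21.0 ± 4.56 (SD, n = 3 each), and the log2 fold change was −1.03 (SE 0.37, 95% interval −1.84 to −0.23, adjusted p = 0.201 by limma). Without control replicate 1 the log2 fold change of Foxi1 was −0.63, with an adjusted p of 0.51. With all libraries, the adjusted p of Foxi1 was 0.179 with edgeR and 0.141 with DESeq2. Foxi1 lies on chromosome 10 of rn4 from 19185932 to 19189856.

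**Figure D2:**
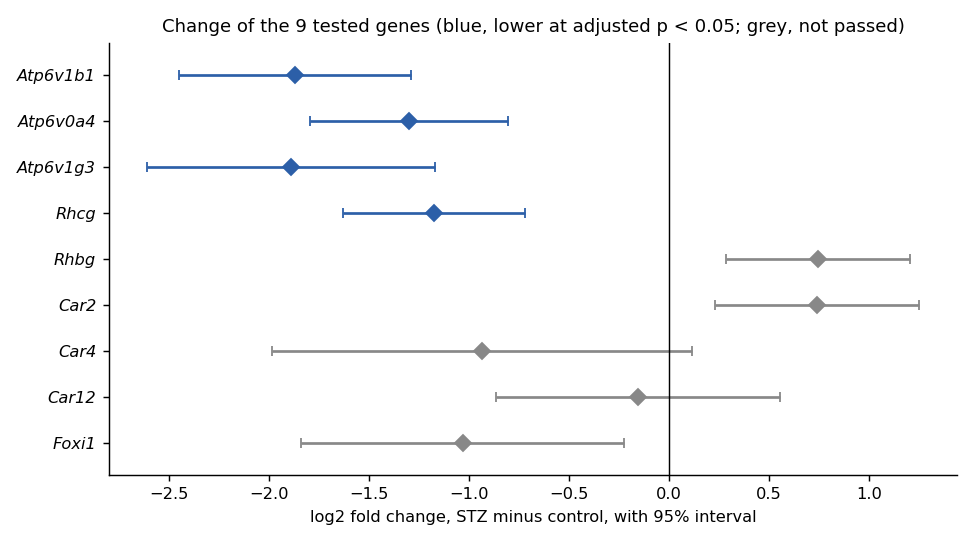
Log2 fold change, STZ minus control, of the 9 tested genes, with bars for the 95% interval of limma. The 4 genes in blue passed an adjusted p of 0.05 and lie between −1.89 for Atp6v1g3 and −1.17 for Rhcg, and the genes in grey did not pass.

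Control replicate 1 had the highest control value for 7 of the 9 tested genes, against 38.1% of all features tested. The exceptions were Car4 and Atp6v0a4, which were highest in control replicate 3. Control replicate 1 was also the highest control for 13 of the 16 other V-ATPase genes tested (81.2%). Among the STZ libraries, replicate 3 was lowest for 6 of the 9 genes, a count for which no share over all features was computed. The mean standardized profile of the 9 genes over the 6 libraries was most like those of Edaradd, Atp6ap2, Med6, Zfp410 and Hbp1, with Pearson r between 0.988 and 0.998. Atp6ap2, an accessory protein of the V-ATPase also known as the prorenin receptor, had 5882, 4496 and 4422 normalized counts in control libraries and 4060.5, 3942 and 3354 in STZ libraries (log2 fold change −0.37, adjusted p = 0.455 by limma). None of these 5 genes passed. That profile averages genes that were higher and lower in STZ rats, and its points share library and depth.

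Most of the other V-ATPase genes had similar values in both groups. Of the 22 listed, 18 were in the table and 16 were tested. Of these, 1, Atp6v0d2, fell, against 0.927% of all features tested, while the other 15 did not pass. Their median log2 fold change was −0.03, close to the 0.01 over all features. Atp6v0d2, the d2 subunit of the V0 sector and a form that intercalated cells and osteoclasts use, had 247, 113 and 149 normalized counts in the control libraries. With 49.2, 52.4 and 54.2, all STZ libraries lay below the controls (log2 fold change −1.61, SE 0.28, adjusted p = 0.0154 by limma). Without STZ replicate 2 its adjusted p was 0.0585. Its widely expressed relative Atp6v0d1 had means of 793 ± 104 and 785 ± 69.7 (SD, n = 3 each; log2 fold change −0.01, 95% interval −0.41 to 0.39, adjusted p = 0.992 by limma). The most strongly counted of the others were Atp6v0e1, Atp6v1g1 and Atp6ap2, with log2 fold changes of −0.07, −0.14 and −0.37 and adjusted p-values between 0.455 and 0.948 by limma.

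**Figure D3:**
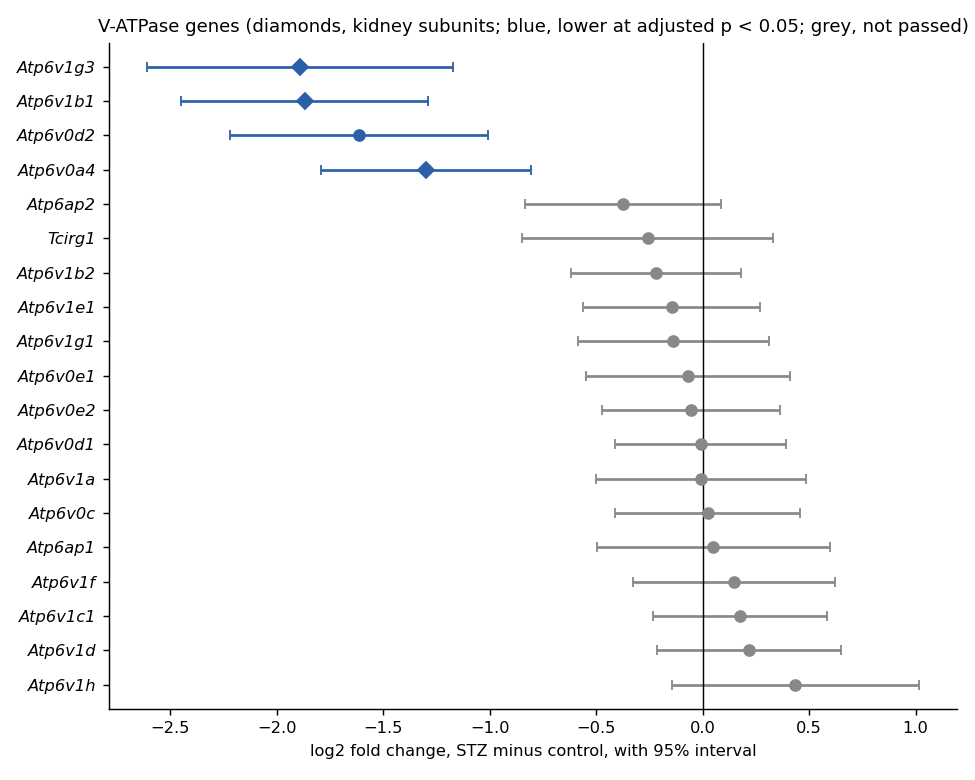
Log2 fold change, STZ minus control, of 19 V-ATPase genes with 95% intervals of limma. Diamonds are Atp6v1b1, Atp6v0a4 and Atp6v1g3 and circles the other V-ATPase genes. The 4 genes in blue passed an adjusted p of 0.05, from −1.89 for Atp6v1g3 to −1.30 for Atp6v0a4, and the other genes lie between −0.37 and 0.44.

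Ratios of each kidney subunit to its widely expressed relative within a library hardly depend on the size factor. Atp6v1b1 and Atp6v1b2 drew similar normalized counts in control rats, with log2 ratios of 0.40, −0.18 and −0.18. The STZ libraries had −1.68, −1.32 and −1.90, and the mean went from 0.01 ± 0.34 in control to −1.63 ± 0.30 in STZ libraries (SD, n = 3 each), a 3.13-fold lower ratio. For Atp6v1g3 against Atp6v1g1 the log2 ratios were −1.63, −2.80 and −2.46 in control and −3.92, −4.41 and −3.82 in STZ libraries, a 3.36-fold lower ratio. For both ratios the groups did not overlap (exact two-sided permutation test, p = 0.1, the smallest possible, and 0.1 adjusted over the 3 ratios). Atp6v0d2 against Atp6v0d1, a ratio chosen after its values were seen, was 3.04-fold lower, from −2.29 ± 0.51 in control to −3.89 ± 0.20 in STZ rats. A ratio of a4 to its relative a1 was planned, and the relative was not analysed here.

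**Figure D4:**
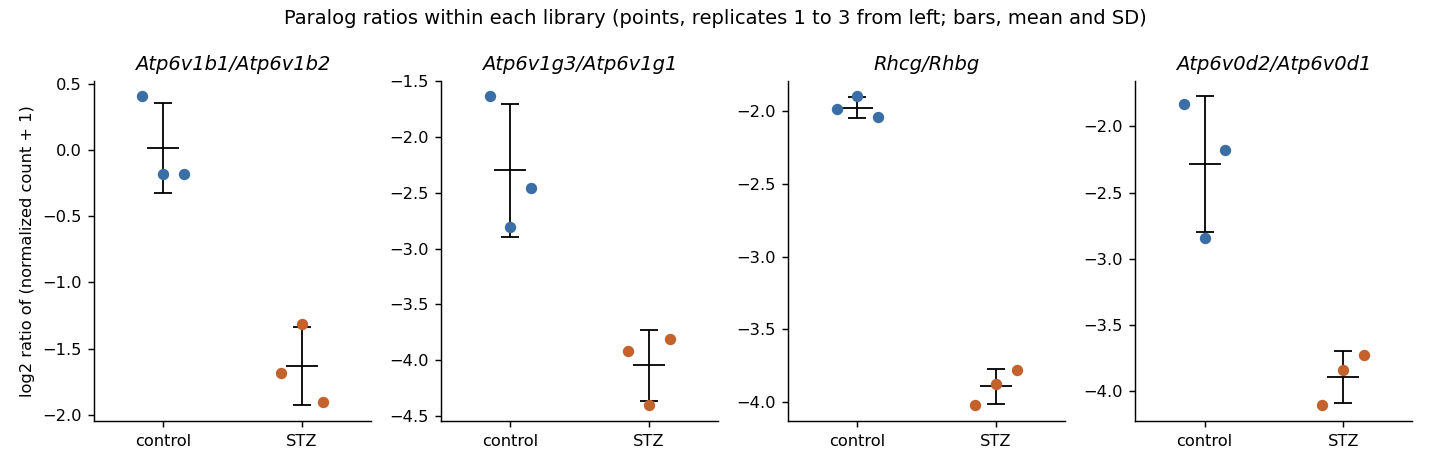
Log2 ratio of the normalized counts of a gene pair, with 1 added to each, within each library. Control libraries are blue and STZ libraries orange, points run from replicate 1 to 3, and black bars give the mean and SD of 3 libraries. In every panel the 3 STZ points lie below the 3 control points, and for Rhcg/Rhbg the group means are −1.97 and −3.89.

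Among 20 other genes of intercalated cells, 18 were in the table and 11 were tested. Of these, 1 fell, against 0.927% of all features tested, and none rose, against 1.17%. Slc4a1, the basolateral chloride and bicarbonate exchanger, had 182, 151 and 180.3 normalized counts in the control libraries. At 80.8, 101 and 60.2 the STZ libraries lay below every control (log2 fold change −1.10, SE 0.23, adjusted p = 0.0367 by limma). With each library left out in turn its adjusted p ran from 0.055 to 0.106, so that each removal ended the call. Slc4a1 is also made by red cell precursors, and the erythroid genes in the table, Hba-a2, Hbb and Hbb-b1, summed to 3197 to 6874 normalized counts in control and 1547 to 3763 in STZ libraries, an overlap in which control replicate 1 was highest. None of those 3 passed, and their part in the value of Slc4a1 was not tested. On chromosome 1 of rn4 the Hbb feature, from 161584857 to 161620198, spans that of Hbb-b1, from 161590670 to 161598127. Whether reads there were counted for both is not given in the sources used here. Of the 11 tested genes 8 had a log2 fold change below 0 and 3 above, with a median of −0.47. For 4 of the 11, Slc4a1, Slc4a9, Tfcp2l1 and Dmrt2, all STZ values lay below the control values, against 10.3% of the features tested. For none did all lie above, against 10.1%. Slc4a9 had 28.7, 18.3 and 25.6 normalized counts in control and 14.9, 13.8 and 15.1 in STZ libraries, without passing (log2 fold change −0.67, adjusted p = 0.375 by limma). Dmrt2 had −0.59, also without passing. The genes of highest mean among the 11, Prdx1, Slc9a4 and Gpr116, which are not restricted to intercalated cells, had log2 fold changes of 0.34, −0.47 and 0.42 without passing. Slc26a11 and Clcn5 had −0.03 and 0.37, also without passing.

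Several other intercalated cell genes were near the limit of detection. Slc26a4 (pendrin), the apical exchanger of bicarbonate-secreting cells, had 2.05, 7.63 and 10.02 normalized counts in control libraries against 1.86, 2.97 and 4.02 in STZ libraries, and exceeded the olfactory receptor percentile in 1 library. Oxgr1, a receptor for oxoglutarate, had 6.15, 3.05 and 4.45 in control libraries and 0 reads in all STZ libraries, too low to be tested. Tfcp2l1, a transcription factor of collecting duct cells, had 13.3, 9.15 and 13.4 against 0, 2.97 and 7.03, and did not pass (−2.01 on the log2 scale, SE 0.80, adjusted p = 0.259 by limma). Atp4a and Atp4b went the other way, with means of 0.37 each in control and 1.60 and 1.26 in STZ libraries. Both were at no more than 3 reads in any library and too low to be tested. For the 8 markers set for intercalated cells, 4 of which are among the 10 genes, the sum ran from 1150 to 2525 normalized counts in control and from 471 to 545 in STZ libraries. Without Atp6v1g3, the highest of them, it ran from 474 to 693 and from 184 to 255. This reduced sum still holds Atp6v1b1, Atp6v0a4 and Slc4a1, which were called lower from the same values. Aqp6, also on that list, was at no more than 3 reads in any library.

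Among 12 other carbonic anhydrases, 11 were in the table and 8 were tested, with a median log2 fold change of 0.18. Of the 8, 1 rose, against 1.17% of all features tested, and none fell, against 0.927%. Car3, a cytosolic enzyme of low activity best known from muscle and fat, had 9.23, 13.0 and 11.1 normalized counts in the control libraries. All STZ libraries were higher, at 39.9, 40.6 and 27.1 (log2 fold change 1.60, SE 0.32, adjusted p = 0.0341 by limma). This gene lies beside Car2, at 88105881 to 88114721 on chromosome 2 of rn4. Its adjusted p was above 0.05 when any library other than control replicate 3 was left out, at up to 0.165 without STZ replicate 2. Car13, also on that stretch of chromosome 2, had means of 9.10 ± 3.10 and 21.6 ± 3.97 (SD, n = 3 each) without overlap and did not pass (log2 fold change 1.20, adjusted p = 0.165 by limma), and was chosen after its values were seen. The mitochondrial Car5b and the catalytically inactive relatives Car8 and Car11, the highest of the others, did not pass either.

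Of 20 further genes of ammonium and bicarbonate handling, 15 were in the table and 14 were tested, with a median log2 fold change of 0.19. Of the 14, 1 rose, against 1.17% of all features tested, and none fell, against 0.927%. Slc12a2, the basolateral sodium, potassium and chloride cotransporter that can also carry ammonium into collecting duct cells, had 475, 345 and 394 normalized counts in the control libraries. Again all STZ libraries were higher, at 699, 743 and 906 (log2 fold change 0.95, SE 0.19, adjusted p = 0.0341 by limma). Its adjusted p was 0.168 without control replicate 2, and 0.0616, 0.116 and 0.109 without STZ replicates 1, 2 and 3. Glud1, the mitochondrial enzyme that releases ammonia from glutamate, had a log2 fold change of 0.26 without passing, and Pck1, which in the proximal tubule rises with acid load, had 0.06 (adjusted p = 0.556 and 0.968 by limma).

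Markers of other cells also differed between the groups. Over all features tested, 0.927% were called lower and 1.17% higher, the background for the counts called in the marker lists. Of the thick ascending limb list, 6 of 8 were in the table and 2 of the 5 tested fell, and the summed level was 1357 to 2108 normalized counts in control and 471 to 952 in STZ libraries. Umod, the defining protein of that segment, had 281, 557 and 940.5 in control libraries against 75.2, 84.1 and 50.2 in STZ libraries (log2 fold change −2.93, adjusted p = 0.00353 by limma). Egf, made in the same segment, also fell (−2.06, adjusted p = 0.0022 by limma), and the salt cotransporter Slc12a1 had −1.47 without passing (adjusted p = 0.0732). Ppp1r1a, on the same list, had 59.5, 40.4 and 43.4 in control against 27.9, 18.8 and 15.1 in STZ libraries, without passing (−1.20, adjusted p = 0.0767 by limma). Cldn19, a tight junction protein on the same list, had higher values in all STZ libraries, at 195, 187 and 170.3 in control against 325, 204 and 244 in STZ libraries, without passing (0.46, adjusted p = 0.343 by limma). Of the 5 tested, 4 had STZ values that all lay below the control values, against 10.3% of the features tested. The STZ values of 1 all lay above, against 10.1%. Among the controls Umod was lowest in replicate 1 and highest in replicate 3. Slc12a1 had the same order over a narrow range, at 636, 641 and 691. Egf, at 182, 173 and 254, was also highest in replicate 3, and Ppp1r1a and Cldn19 were highest in replicate 1. Atp6v1b1, Atp6v1g3 and Rhcg were highest in replicate 1 and Atp6v0a4 in replicate 3. These orders rest on 3 libraries. The part of thick limb cells in the lower V-ATPase and Rhcg values was not tested.

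Of the 10 principal cell markers tested none passed, with a median log2 fold change of 0.35 and sums from 33034 to 54895 in control and 42968 to 82018 in STZ libraries. For 3 of the 10, all STZ values lay above the control values, against 10.1% of the features tested. These were Aqp2, Scnn1b and Scnn1g, with log2 fold changes of 0.84, 0.79 and 0.93. For 1, Hsd11b2, at −0.83, all STZ values lay below the control values, against 10.3%. In the endothelial list, Emcn and Plvap fell among 6 tested, with log2 fold changes of −1.38 and −1.01 (adjusted p = 0.00679 and 0.029 by limma), and the sum ran from 7011 to 9098 in control and 3662 to 4041 in STZ libraries. Without Emcn the sums overlapped, at 1827 to 2649 and 1625 to 2038. Cdh5 and Tek had −0.56 and −0.61, and Flt1 and Pecam1 0.95 and 0.04, all without passing. Of the 6 tested, 4 had STZ values that all lay below the control values, against 10.3% of the features tested. Upk3a and Upk1b rose among 6 urothelial genes tested, by 3.30 and 1.25 on the log2 scale (adjusted p = 0.000117 and 0.0489 by limma), with sums of 101 to 167 in control and 447 to 533 in STZ libraries. Without Upk3a these sums overlapped, at 73.2 to 117 and 114 to 167. Upk2 and Upk3b had 0.96 and 0.62, and Krt15 and Upk1a −0.80 and 0.04, all without passing. Pdgfra rose among 6 interstitial genes tested (1.03, adjusted p = 0.0364 by limma), with sums of 7589 to 9182 and 4830 to 10957, or 861 to 1168 and 1447 to 1755 without Dcn. None of the 7 leukocyte, 5 thin limb, 4 proximal and 3 distal convoluted tubule genes tested passed. Their sums in control and STZ libraries were 708 to 2856 and 1580.4 to 2779 for leukocytes, 3662 to 4173 and 3764 to 5036 for thin limbs, 61.5 to 157 and 62.3 to 103 for proximal tubule, and 42.0 to 76.8 and 57.6 to 93.4 for distal convoluted tubule, whose marker Pvalb was at 0 in all libraries. Among the most strongly counted in these lists, Cd74 and Cd14, Cldn10, Aspa and Slc22a6, and Trpm6 and Slc12a3 had log2 fold changes between −0.70 for Cd14 and 0.69 for Cd74, and Fxyd4 among the principal cell markers had 0.30. The part of these cells in the results was not tested.

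**Figure D5:**
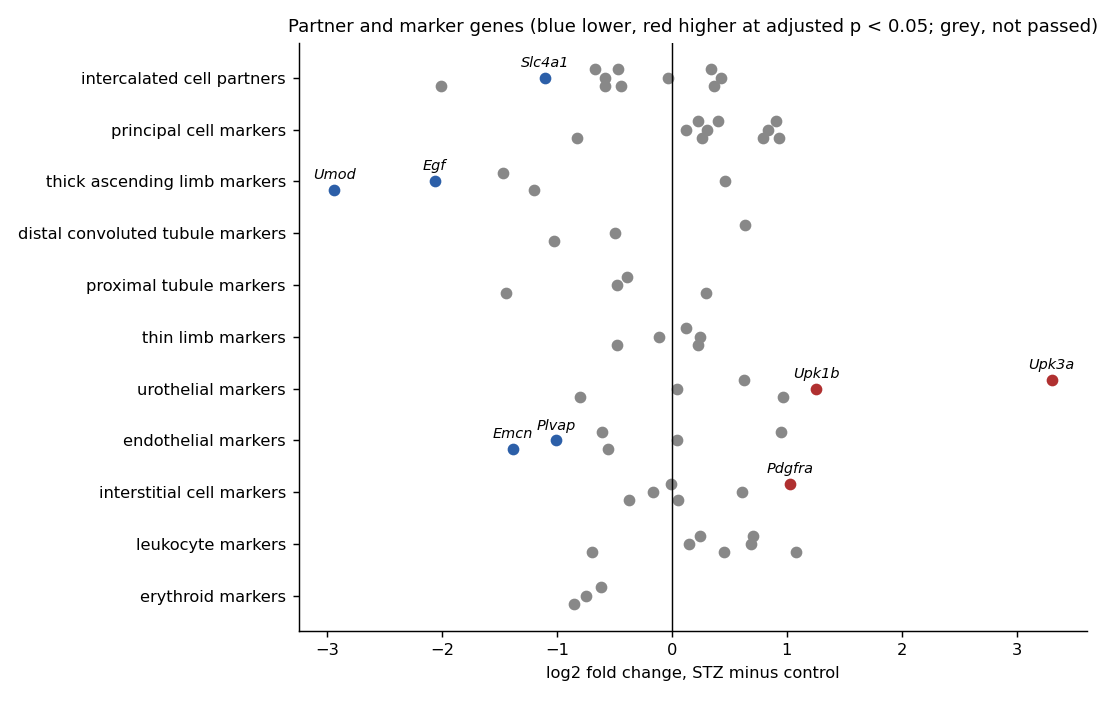
Log2 fold change, STZ minus control, of each tested gene in the list of intercalated cell partners and in 10 marker lists, with 1 point per gene and small vertical shifts for legibility. Blue points fell and red points rose at an adjusted p of 0.05, with their names, and grey points did not pass. Umod, at −2.93, is the lowest point and Upk3a, at 3.30, the highest.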

How the data were processed

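Libraries from the IM tip of 3 control and 3 STZ rats, labelled as separate samples, were compared. The authors amplified cDNA by PCR, used STAR 2.3.1t for alignment to rn4, kept unique alignments for counting per gene and normalized with DESeq 1.16.0. Whether strand was used in counting is not given in the sources used here. The deposited signal is therefore a read count divided by a size factor, and gives no level per transcript length. All per-library columns matched a sample label. Dividing a library by its smallest step gave whole reads for 100% of values within 0.01. No molecular identifiers are described, so the floor of 3 reads covers counting error only. The p-values of limma rest on the spread between these 3 libraries per group, moderated toward that of other features of similar level.

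The test was limma 3.58.1 in R 4.3.3 with an intensity trend, after a filter on a mean of at least 5, with edgeR 4.0.16 and DESeq2 1.42.0 on whole reads as alternatives. Methods were tested on simulated data. Also tried were a pseudocount of 0.5 or 5, a minimum mean of 1 or 20, no filter, equal library totals, quantile normalization, no trend, robust moderation, the replicate block and each library left out. Exact permutation tests were run with scipy 1.17.1. Promoters came from RefSeq (GRCr8), matched by symbol for 9 of the 10 genes. The members and lists were chosen with earlier results of these data known. Named are the 10 genes, partner and marker genes that passed or, failing that, had the highest means, paralogs, Umod and Slc12a1, the 5 genes of most similar profile, and Slc26a4, Aqp6, Oxgr1, Tfcp2l1, Car13, Pck1, Aqp2, Pvalb, Hbb-b1, Cldn19, Flt1, Pecam1, Krt15, Upk1a, Dcn and Atp6v0d1 outside this rule, named after values were seen. Ppp1r1a, Cdh5, Tek, Upk2, Upk3b, Slc26a11, Clcn5, Atp4a and Atp4b were also named outside it, after values were seen. The same holds for Scnn1b, Scnn1g, Hsd11b2, Slc4a9 and Dmrt2. Listed genes absent from the table were not analysed here, and some listed genes are not reported here.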

Additional observations from a re-analysis of the deposited data

How the results depend on the processing

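Atp6v1b1, Atp6v0a4, Atp6v1g3 and Rhcg were lower in STZ rats in all 19 alternatives, and their calls held in 17, 14, 16 and 13 of them. The number of the 10 genes called by limma was 4 in the main comparison, 0 without the intensity trend and 0 without a filter on low values (7 at an unadjusted p under 0.05 in both, against 13.1% and 9.0% of all features), and 1 to 4 with each library left out, with the lowest number without STZ replicate 2 and 2 without control replicate 1 or STZ replicate 3. It was 4 with edgeR and 6 with DESeq2. Over all features the number was 283, and 31 without the trend, 98 without a filter, 522 with quantile normalization, 597 with DESeq2 and 86 to 341 with each library left out. The log2 fold change of Car12 turned to 0.10 without control replicate 1 and 0.06 without STZ replicate 2, in a range from −0.45, and the cause was not tested. For pairing by replicate number, the residuals of control and STZ libraries of number 1, 2 and 3 had r = 0.395, −0.061 and 0.323 (across 9315 genes, which are not independent). The second pair did not correlate and no label ties the rats, so the numbers were not taken as pairs. With this replicate block, limma called 561 features and 5 of the 10 genes, and edgeR 544 features and 6. The block brought Rhbg under the threshold with both (adjusted p = 0.0361 and 0.0382), and Car2 with edgeR (0.0476) but not with limma (0.0575). Car15, Slc26a4, Oxgr1 and Aqp6 were limited by depth.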
